A study of Mus musculus with 4 samples.

Results

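The genes described here encode RNA-binding proteins, splicing factors and RNA helicases, and each is a host, meaning that a circular RNA (circRNA) was read from its locus. Members were picked by gene symbol: a host was taken if its symbol begins with Rbm, Hnrnp, Srsf, Ddx, Dhx, Prpf, Celf, Mbnl, Rbfox, Cpsf, Cnot, Larp or Elavl, or is Qk. The rule found 87 of the 4653 host genes in the 4 libraries, with 277 of the 13499 distinct circRNAs and 2564 junction reads. A junction read crosses the back-splice, where the end of an exon is joined to the start of the same exon or of one upstream. Release M21 of the GENCODE annotation holds 194 mouse genes whose symbols meet the rule. No circRNA was listed for an Elavl gene or for Rbfox3.

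Lungs of C57BL/6 mice were sampled for sequencing of total RNA, with 1 library for each of 4 stages. These were the pseudoglandular stage (embryonic day 14.5), the canalicular stage (embryonic day 16.5), the terminal sac stage (embryonic day 18.5) and the alveolar stage (newborn day 7.5). The labels name no allele or agent for any stage, and do not give the sex or the number of animals behind a library. With 1 library per stage nothing checks a difference against the spread between animals, so each comparison below is of libraries, and no p-value is given. Intervals are 95% intervals for counting error only, and can be too narrow because reads copied by PCR are not independent molecules. In whole lung, fewer cells of a type and less RNA per cell cannot be told apart.

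CircRNAs arise when the spliceosome joins a donor site to an acceptor site upstream of it, and the closed circle that results resists exonucleases that degrade linear RNA. RNA-binding proteins take part in that step: Quaking, Muscleblind and several hnRNP and SR proteins bind introns beside circularised exons, and the helicase Dhx9 opens paired inverted repeats that favour back-splicing. Many genes for such proteins also give circles of their own, of which the Muscleblind circle is the best known.

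The libraries held between 25983 and 36156 listed junction reads, and every listed circRNA had at least 2. CircRNAs whose ends share a direct repeat of 6 or more bases, or whose reads show few distinct alignment patterns, are called marked below. They took between 4.38% and 6.05% of junction reads in the 3 embryonic libraries and 14.4% in the alveolar library. Among the member circRNAs 9 were marked, with 24, 10, 4 and 6 junction reads in order of stage. As a check of the tissue, circRNAs were listed for 3 of 10 lung epithelial markers, Sftpc, Sftpb and Etv5, whose reads came to 0, 18, 382 and 629 in order of stage. The defining factor Nkx2-1 had none listed. None of 6 neuronal markers had a listed circRNA in any library.

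The back-splice sequences of circles that carry the results below are shown so that the joined exons can be seen. Each runs 5′ to 3′ in the sense of the transcript, with the last 20 bases of the donor exon in lower case and the first 20 bases of the acceptor exon in capitals, read from GENCODE M21 transcripts (build mm10).
Hnrnpll exons 2 to 7 (chr17:80044494-80053641, minus strand): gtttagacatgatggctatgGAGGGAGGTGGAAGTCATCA
Rbm33 exons 8 to 10 (chr5:28358274-28368313, plus strand): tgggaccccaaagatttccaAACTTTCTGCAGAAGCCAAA
Rbm33 exons 2 to 5 (chr5:28331111-28339308, plus strand): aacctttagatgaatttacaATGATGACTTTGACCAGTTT
Rbm33 exons 2 to 6 (chr5:28331111-28342514, plus strand): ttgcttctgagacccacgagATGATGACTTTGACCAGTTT
Rbm33 exons 2 to 7 (chr5:28331111-28352643, plus strand): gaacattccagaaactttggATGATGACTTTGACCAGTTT
Rbm33 exons 2 to 10 (chr5:28331111-28368313, plus strand): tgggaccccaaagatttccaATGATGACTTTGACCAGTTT
Dhx15 exons 2 to 3 (chr5:52180982-52184903, minus strand): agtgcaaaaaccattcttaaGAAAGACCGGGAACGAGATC
Cpsf6 exons 2 to 3 (chr10:117366081-117367988, minus strand): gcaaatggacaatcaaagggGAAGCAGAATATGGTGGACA
Cnot6l exons 6 to 8 (chr5:96091584-96098313, minus strand): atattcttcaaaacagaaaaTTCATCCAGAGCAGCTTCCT
Rbms1 exons 3 to 6 (chr2:60779731-60797742, minus strand): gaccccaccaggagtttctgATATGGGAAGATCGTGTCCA
Ddx17 exons 2 to 4 (chr15:79541034-79543856, minus strand): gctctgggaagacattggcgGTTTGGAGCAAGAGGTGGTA
Qk exons 2 to 4 (chr17:10238893-10282981, minus strand): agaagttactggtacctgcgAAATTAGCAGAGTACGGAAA
Mbnl1 exons 3 to 4 (chr3:60595594-60603894, plus strand): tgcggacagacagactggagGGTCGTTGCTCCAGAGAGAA
The 4 Rbm33 circles that begin at exon 2 share their capitals and differ in lower case, and the circles of exons 2 to 10 and 8 to 10 share their lower case and differ in capitals. All these junctions lie between coding exons.

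The 87 hosts took a smaller share of junction reads in the alveolar library than in each embryonic library. Their junction reads came to 667 at the pseudoglandular stage, 736 at the canalicular, 743 at the terminal sac and 418 at the alveolar stage. The share of listed junction reads was 2.57% (exact Clopper-Pearson interval 2.38 to 2.77), 2.36% (2.19 to 2.53), 2.05% (1.91 to 2.21) and 1.48% (1.34 to 1.62) in that order. Between the alveolar and the pseudoglandular library the share was 1.74-fold lower (1.54 to 1.97), and it was 1.68-fold lower without Hnrnpll, the host with most reads. Without marked circRNAs in either library the difference was 1.52-fold (1.34 to 1.73). Over the 22 member circRNAs listed in all 4 libraries it was 1.66-fold (1.40 to 1.97). Over consecutive steps the share was 1.09-fold lower in the canalicular than in the pseudoglandular library (0.979 to 1.21), an interval that includes no difference, and with listed non-junction reads as the scale the direction turned, to a ratio of 1.04. It was then 1.15-fold lower in the terminal sac library (1.03 to 1.27) and 1.39-fold lower again in the alveolar library (1.23 to 1.57).

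**Figure D1:**
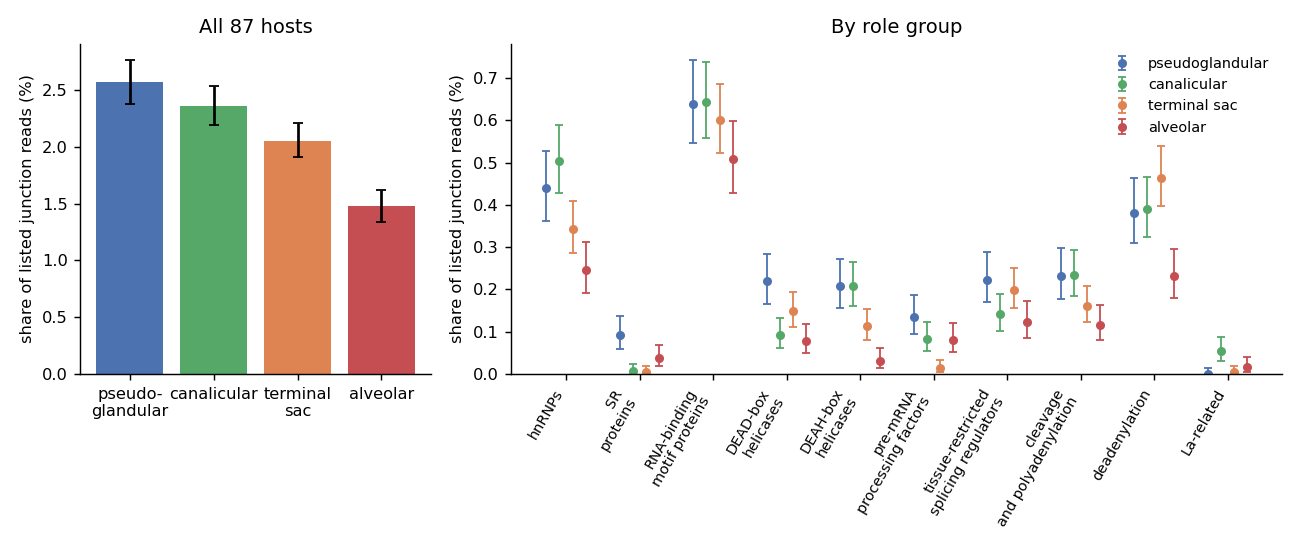
Share of listed junction reads, in percent, from all 87 hosts (left, bars) and from each of 10 role groups (right, points) in the 4 libraries, 1 per stage, with exact Clopper-Pearson 95% intervals for counting error. The share of all hosts is 2.57% at the pseudoglandular and 1.48% at the alveolar stage, and the DEAH-box group goes from 0.208% to 0.0318%, or from 0.145% to 0.0371% without marked circRNAs.

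Reads were unevenly spread over the hosts. The 12 leading hosts held 1747 junction reads, 68.1% of those of the members. In all, 41 hosts had 10 or more junction reads and 46 had fewer, 23 were listed in every library and 33 in a single library. Of the circRNAs 22 were listed in all 4 libraries, 7.94% against 6.64% of all circRNAs in the series, and 202 in a single library, 72.9% against 74.4%. Circles with 2 reads made up between 37.4% and 41.5% of each list, so being unlisted says little for the rarer circles.

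Among the hnRNPs, nuclear proteins that coat new transcripts and steer splice-site choice, Hnrnpll was the leading host of the whole set. It encodes a relative of hnRNP L known for splicing of the leukocyte surface protein CD45, and it gave a single circle, exons 2 to 7 of 13, with a spliced length of 685 bases. The circle had 102, 118, 103 and 51 junction reads in order of stage, or 39.3, 37.8, 28.5 and 18.0 per 10000 listed junction reads. It was thus alike in the first 2 libraries and lowest in the alveolar, where its share was 2.18-fold below the pseudoglandular share (1.54 to 3.12). Hnrnph3, of the hnRNP H family that binds G-rich sequence, had 2, 20, 2 and 6 reads and stood out in the canalicular library. Its share there was 8.32-fold the pseudoglandular share (2.02 to 73.4) and the terminal sac share was 11.6-fold below it (2.81 at the near end of the interval). Hnrnpm, a regulator of alternative exons, was listed with 3 reads in the canalicular and 11 in the alveolar library alone. The other 6 hnRNP hosts, among them Hnrnpr, Hnrnpd and Hnrnpul1, had 13 or fewer reads each. The 9 hosts together held 114, 157, 124 and 70 reads.

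The Rbm group, named for the RNA-recognition motif, was the largest, with 17 hosts, 85 circRNAs and 728 junction reads. Its reads came to 166, 201, 217 and 144 in order of stage, and the alveolar share was 1.26-fold below the pseudoglandular (0.999 to 1.58), an interval that just includes no difference. Rbm33, a protein linked to nuclear export and removal of RNA methylation, gave 12 circles with 74, 63, 74 and 54 reads, or 28.5, 20.2, 20.5 and 19.1 per 10000. Only the pseudoglandular library stood above the others, by 1.49-fold over the alveolar. Rbm39, a splicing factor related to U2af2, gave 13 circles with 13, 29, 29 and 17 reads. Rbm27, a zinc-finger protein of nuclear RNA decay, had 24, 22, 20 and 19 reads, or 9.24, 7.05, 5.53 and 6.71 per 10000.

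The remaining Rbm hosts went in different directions. Rbm4, a regulator of alternative splicing, had 24, 16, 23 and 7 reads and was lowest in the alveolar library, 3.74-fold below the pseudoglandular share. Its main circles, 39 and 26 reads, share an end at chr19:4784724, and neither has both ends at exon boundaries of a single M21 transcript. Rbm4 has a closely similar neighbour gene, Rbm4b, and how the counting treats reads that match both was not tested. Rbms1, a binder of single-stranded nucleic acid and AU-rich RNA, went the other way with 5, 3, 18 and 18 reads, high in the terminal sac and alveolar libraries. Its relative Rbms3 had 6, 23, 21 and 10 reads over 18 circRNAs, the most of any member host, none above 12 reads. Rbm25, a splicing regulator, had 2, 10, 11 and 3 reads, and Rbm41 had 3, 6 and 11 reads and was not listed in the alveolar library.

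Subunits of the CCR4-NOT complex, which shortens the poly(A) tails of messenger RNA, held 455 junction reads over 8 hosts, and the 3 leading ones did not follow a common course. Cnot4, the ubiquitin ligase associated with the complex, had 34, 63, 58 and 31 reads, or 13.1, 20.2, 16.0 and 10.9 per 10000. Cnot6l, a catalytic deadenylase, had 22, 23, 61 and 26 reads. Cnot2, a scaffold subunit needed for assembly, had 37, 18, 41 and 4 reads. Cnot4 was thus highest in the canalicular library and Cnot6l in the terminal sac library, while Cnot2 was high in the pseudoglandular and terminal sac libraries and lowest in the alveolar. The alveolar share of Cnot2 was 10.1-fold below the pseudoglandular (3.62 to 39.0) and 8.03-fold below the terminal sac share (2.91 at the near end). Cnot1, the central scaffold, had 2, 7, 8 and 3 reads.

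Of the cleavage and polyadenylation hosts, Cpsf6 held 214 of 224 junction reads. It encodes a subunit of cleavage factor I, which takes part in the choice of poly(A) site. Its 10 circles had 58, 67, 56 and 33 reads, or 22.3, 21.5, 15.5 and 11.6 per 10000. The pseudoglandular and canalicular values were close (17.0 to 28.9 and 16.6 to 27.3), and the terminal sac and alveolar values lay below them. The alveolar share was 1.92-fold below the pseudoglandular (1.23 to 3.03), just under the 2-fold threshold. Cpsf3, the endonuclease that cuts the pre-mRNA, was listed with 6 reads in the canalicular library alone.

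**Figure D2:**
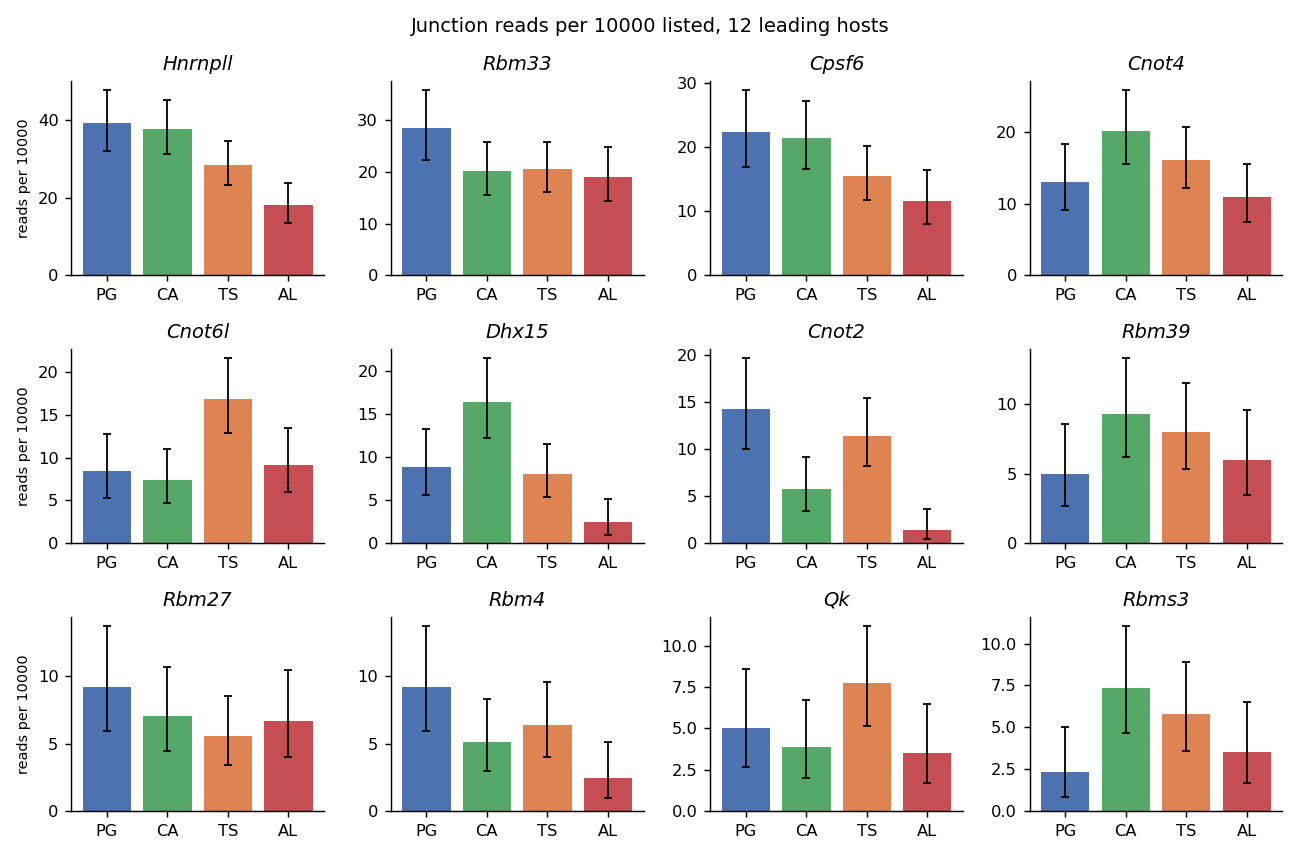
Junction reads per 10000 listed junction reads for the 12 hosts with most reads, in the pseudoglandular (PG), canalicular (CA), terminal sac (TS) and alveolar (AL) library, 1 library each, with exact Poisson 95% intervals. Vertical scales differ between panels. Hnrnpll goes from 39.3 to 18.0 and Cnot2 from 14.2 to 1.41 between the pseudoglandular and alveolar libraries, while Cnot6l is highest in the terminal sac library at 16.9.

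RNA helicases use ATP to remodel RNA and RNA-protein complexes. The 8 DEAH-box hosts held 54, 65, 41 and 9 junction reads, and the alveolar share was 6.54-fold below the pseudoglandular (3.20 to 15.1). Without marked circRNAs, which removes 18 of the 54 pseudoglandular reads, it was 3.90-fold below (1.85 to 9.22). Dhx15, which takes spent spliceosomes apart, had 23, 51, 29 and 7 reads and was highest in the canalicular library. Its alveolar share was 3.58-fold below the pseudoglandular (1.49 to 9.89) and 3.25-fold below the terminal sac share. Dhx9, named above for opening paired repeats, had 22, 7 and 3 reads in the embryonic libraries and was not listed in the alveolar library. Of its 22 pseudoglandular reads, 18 came from 1 marked circle with few alignment patterns, which was listed in no other library. Without marked circRNAs Dhx9 rests on 4 pseudoglandular and 7 canalicular reads.

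The 18 DEAD-box hosts held 57, 29, 54 and 22 junction reads, with an alveolar share 2.83-fold below the pseudoglandular (1.70 to 4.85). Ddx17, a helicase of splicing and microRNA processing, had 20, 5, 17 and 9 reads and was lowest in the canalicular library. Ddx10, which acts in ribosome assembly, had 12 and 11 reads in the first 2 libraries, none listed in the terminal sac library and 2 in the alveolar. Ddx42, a partner of the U2 snRNP, had 9, 0, 4 and 2 reads. Ddx58, the sensor of viral RNA also called RIG-I, had 2, 3, 3 and 3 reads, close to the minimum listed. The Y-linked Ddx3y was listed with 3 reads in the terminal sac library alone.

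The spliceosomal and SR groups were thinly read. The 7 Prpf hosts, components of spliceosomal snRNPs and their partners, held 35, 26, 5 and 23 junction reads and were lowest in the terminal sac library. Prpf39, a U1 snRNP partner, had 18 pseudoglandular and 4 alveolar reads and was unlisted between them. Prpf8, the scaffold at the spliceosome's core, showed 12 canalicular and 8 alveolar reads and was unlisted in the other two libraries. Prpf6, of the tri-snRNP, had 4, 8, 3 and 7. The 6 SR hosts held 24, 2, 2 and 11 reads. Srsf1, the best-studied SR protein, supplied 15 of the 24, with 15, 2, 0 and 5 reads, and Srsf11 was listed with 6 alveolar reads from a marked circle. The alveolar share of the SR hosts was 2.38-fold below the pseudoglandular (1.12 to 5.38), and 4.69-fold below (1.75 to 15.7) without marked circRNAs. The La-related hosts, regulators of messenger RNA translation and stability, held 0, 17, 2 and 5 reads, of which 10 canalicular reads were from Larp1 and 7 from Larp4b.

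The 8 hosts that encode splicing regulators with tissue-restricted roles held 58, 44, 72 and 35 junction reads. Qk, the gene of Quaking, had 13, 12, 28 and 10 reads over 8 circles and was highest in the terminal sac library. Mbnl2 had 16, 4, 23 and 13 reads, with a dip in the canalicular library where its main circle, the single exon 2, was unlisted. Mbnl1 had 13, 15, 8 and 4 reads and was lowest in the alveolar library. Its exon 2 circle had 7, 0, 0 and 4 reads and its circle of exons 3 to 4 had 4, 8, 5 and 0, and no Mbnl1 circle was called in the comparisons where it had enough reads. Rbfox2, which binds GCAUG elements, had 7, 2, 2 and 6 reads, and Celf2 had 4, 7 and 6 and was unlisted in the alveolar library.

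To compare the last stage with the first, host sums in the alveolar library were compared with those in the pseudoglandular library. A host that reached 10 junction reads over both libraries was called when the ratio of its shares was at least 2-fold and the exact conditional binomial interval excluded 1. Of the 87 hosts 25 could be compared. Lower in the alveolar library were 11, or 44.0%, where 16.5% of all 1088 hosts compared were called lower. Higher was 1, where 13% of all hosts were called higher. The median log2 ratio of the 25 was −0.58, and that of all hosts compared was −0.12. Members were proposed with these results in view, so the counts describe these libraries and are not independent evidence.

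The 11 lower hosts come from 8 role groups. Those not yet given with a ratio were Prpf39 (4.91-fold lower, 1.62 at the near end of the interval), Mbnl1 (3.54-fold, 1.09 at the near end), Srsf1 (3.27-fold, 1.13) and Ddx17 (2.42-fold, 1.05). Ddx10 was 6.54-fold lower (1.46 at the near end) and Ddx42 4.91-fold lower with an interval that begins at 1.02. With its unlisted library set to 3 reads Dhx9 was 8.0-fold lower (2.40 at the near end), and it was called through its marked circle. How the lists were filtered is not known, so such a value is not a lower limit. The single higher host was Rbms1, at 3.30-fold (1.18 to 11.4). Rbm5, another splicing regulator, was at 3.67-fold with 2 pseudoglandular and 8 alveolar reads. Hnrnpm was at 3.36-fold with its unlisted library set to 3 reads. For both hosts the interval included 1. The calls rest on few reads in the alveolar library, 9 or fewer for every lower host except Hnrnpll.

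Scaling the libraries in other ways shifted every log2 ratio of this pair upward, by 0.13 with the median of ratios over hosts and by 0.17 with listed non-junction reads. Then 8 and 7 hosts were called lower, and Hnrnpll lay at −0.999 and −0.96 in log2, just inside 2-fold. Without marked circRNAs, which also lowers the totals used for scaling, 6 of the 11 kept their call, namely Cnot2, Ddx10, Dhx15, Prpf39, Rbm4 and Srsf1. Dhx9 was left with too few reads to compare. The other 4 lost the call with little change of the log2 ratio, Hnrnpll at −0.97, Ddx17 at −1.12, Mbnl1 at −1.67 and Ddx42 at −2.14.

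**Figure D3:**
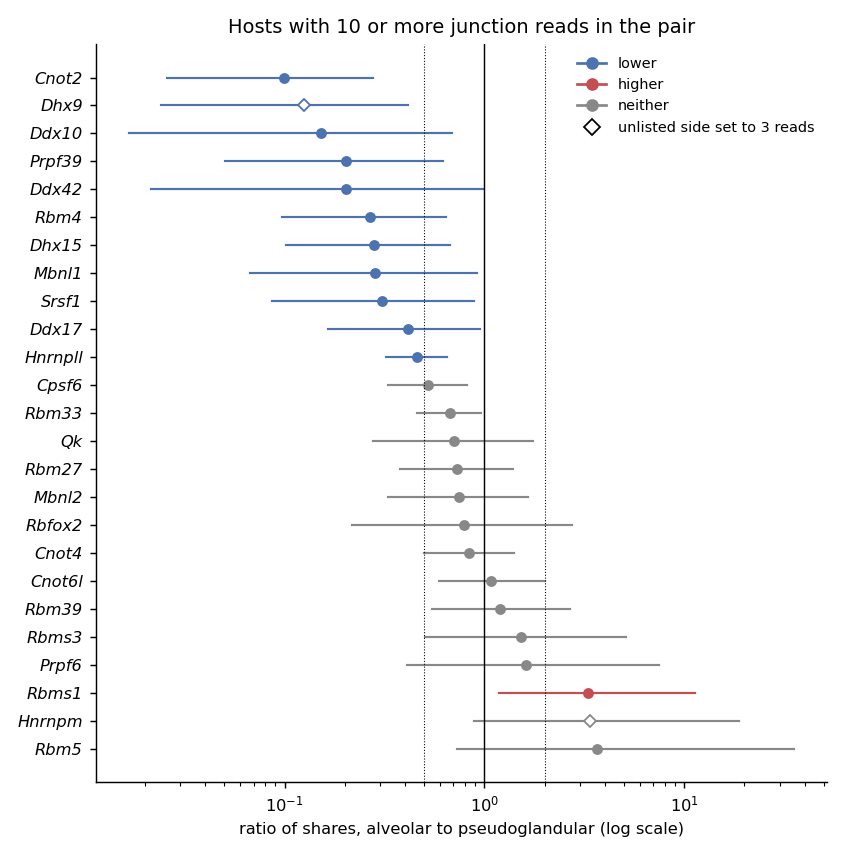
Ratio of the share of listed junction reads in the alveolar library to that in the pseudoglandular library (log scale) for the 25 hosts that could be compared, with exact conditional 95% intervals for counting error. Blue hosts were called lower (11), the red host higher (1), the rest neither; open diamonds have 1 library unlisted and set to 3 reads, and dotted lines mark 2-fold.

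From the pseudoglandular to the canalicular library 27 hosts could be compared, with 6 lower (11.4% of all hosts compared) and 2 higher (8.84% of all). The higher hosts were Hnrnph3 and Rbms3 (3.19-fold, 1.26 to 9.58). The lower were Cnot2 (2.47-fold), Ddx17 (4.81-fold), Mbnl2 (4.81-fold), Dhx9 (3.78-fold), Srsf1 (9.01-fold) and Prpf39 (7.21-fold, unlisted library set to 3 reads). With listed non-junction reads as the scale the split was 6 higher to 6 lower in place of 2 to 6, since that scale raised every log2 ratio of the pair by 0.18. Over circRNAs listed in both libraries none of the 8 calls was kept.

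From the canalicular to the terminal sac library 26 hosts could be compared, with 4 higher (12.2% of all) and 4 lower (12.1% of all). Higher were Cnot6l (2.29-fold, 1.40 to 3.88), Mbnl2 (4.96-fold, 1.70 to 19.7), Ddx17 (2.94-fold, 1.04 to 10.2) and Rbms1 (5.18-fold, 1.51 to 27.5). The Cnot6l sum includes 18 terminal sac reads of exons 6 to 8, a circle unlisted in the canalicular library. The main Cnot6l circle, exons 2 to 4, was at 1.73-fold (0.971 to 3.17) and was not called. Lower were Dhx15 (2.04-fold), Hnrnph3, Ddx10 (4.25-fold) and Prpf8 (4.63-fold). For Ddx10 and Prpf8 the unlisted library was set to 3 reads. Ddx17 and Mbnl2 were thus called lower at the preceding step and higher at this one, although Ddx17 lost the second call with listed non-junction reads as the scale, at a log2 ratio of 1.49. The steps share the canalicular library, so a low reading there enters both.

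From the terminal sac to the alveolar library 21 hosts could be compared, with 4 lower (12.4% of all) and 1 higher (12.1% of all). Lower were Cnot2, Dhx15, Rbm4 (2.57-fold, 1.07 to 7.10) and Qk (2.19-fold, 1.03 to 5.06). Higher was Hnrnpm (4.68-fold, unlisted library set to 3 reads). Rbm4 and Qk lost the call with the median of ratios as the scale and without marked circRNAs, and Qk also with non-junction reads as the scale. In the same step Hnrnpll lay 1.58-fold lower (1.12 to 2.26) and Cnot6l 1.84-fold lower (1.14 to 3.03), both under the threshold. Among the 16 member hosts with 40 or more reads in all, 9 had their lowest share in the alveolar library (56.3%), against 230 of 622 such hosts in the series (37.0%). The highest share of 8 of the 16 was in the pseudoglandular library (50%, against 27.3% of the 622). Only that of Rbms1 was in the alveolar library (6.25%, against 22.7%).

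Circle by circle, 23 member circRNAs could be compared between the alveolar and pseudoglandular libraries, with 8 lower (17.4% of all circRNAs compared) and 0 higher (12.2% of all). They were the circles of Hnrnpll, Cnot2 exons 2 to 4 (24 to 4 reads), Cpsf6 exons 2 to 9 (41 to 21), Cnot4 exons 2 to 3 (25 to 11), Dhx15 exons 2 to 3 (17 to 7), Rbm33 exons 2 to 5 (17 to 6), the shorter Rbm4 circle (13 to 3) and the marked Dhx9 circle. Cpsf6, Cnot4 and Rbm33 thus each had a circle called lower while the host sum was not.
In the steps, 4 were lower and 1 higher of 23 from the pseudoglandular to the canalicular library (9.83% and 8.16% of all). Next, 3 were lower and 4 higher of 27 from the canalicular to the terminal sac library (11.2% and 8.94%). In the last step, 4 were lower and 1 higher of 22 (11% and 10.5%).

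Several hosts gave families of circles that share an acceptor and differ in donor, and the mix differed between libraries. These families were singled out after their values were seen, as those with 40 or more reads. Rbm33 has 2 of them. The 5 circles that begin at exon 2 held 45, 19, 33 and 34 junction reads, and the 3 that begin at exon 8 held 29, 42, 35 and 18. The canalicular library was thus lowest for the exon 2 family and highest for the exon 8 family of the same gene. Within the exon 2 family, exons 2 to 5 had 17, 2, 19 and 6 reads and exons 2 to 7 had 17, 8, 6 and 16. The share of exons 2 to 5 was 37.8% (23.8 to 53.5), 10.5% (1.30 to 33.1), 57.6% (39.2 to 74.5) and 17.6% (6.76 to 34.5) in order of stage. The canalicular value rests on 2 of 19 reads. Its interval does not overlap the terminal sac interval, but this pair was picked from many after the values were seen. No count of such pairs over the series is given beside it. Exons 2 to 6, with 6, 6, 5 and 8 reads, had close counts.

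Cnot4 gave 4 circles from the acceptor of exon 2. Exons 2 to 3 (464 bases) took 25 of 34, 36 of 58, 41 of 58 and 11 of 31 reads. These were shares of 73.5% (55.6 to 87.1), 62.1% (48.4 to 74.5), 70.7% (57.3 to 81.9) and 35.5% (19.2 to 54.6). The larger circle of exons 2 to 7 took 9, 16, 14 and 15 reads. Its shares were 26.5% (12.9 to 44.4), 27.6% (16.7 to 40.9), 24.1% (13.9 to 37.2) and 48.4% (30.2 to 66.9). The alveolar interval overlaps each embryonic one. In the alveolar library the longer circle therefore had more reads than the shorter. Exons 2 to 7 came in 2 forms, of 904 and 913 bases, whose donors lie 9 bases apart (chr6:35064898 and chr6:35064889), the form of 913 bases with 0, 6, 3 and 3 reads. In Cpsf6, exons 2 to 9 took between 71.2% and 86.3% of reads from the exon 2 acceptor in every library. In Dhx15, exons 2 to 3 took between 76.0% and 100% of reads from its exon 2 acceptor. Outside these families, Cnot6l exons 6 to 8 had 18 reads in the terminal sac library of the host's 61 and were listed nowhere else.

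**Figure D4:**
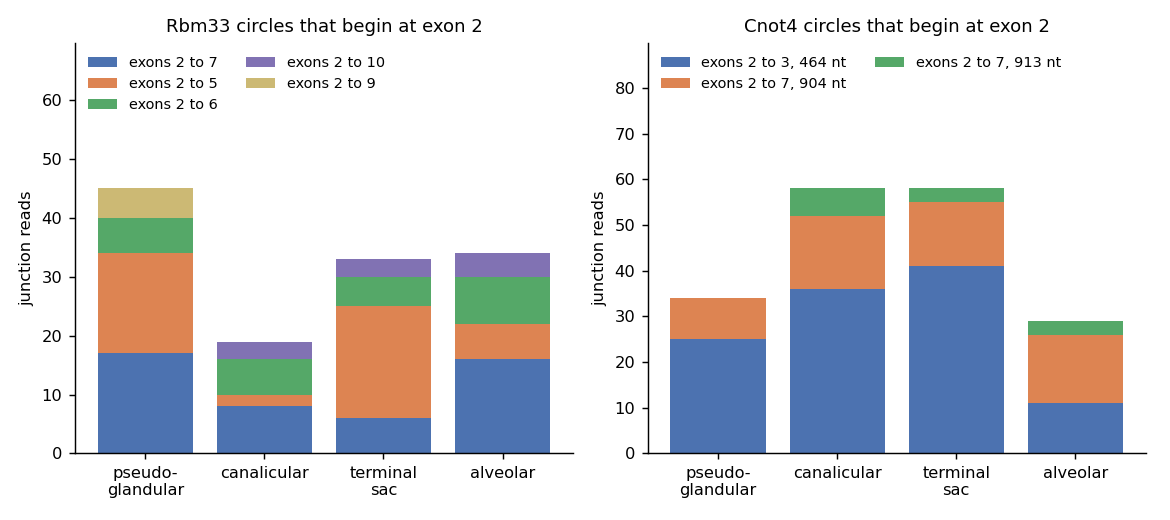
Junction reads of Rbm33 (left) and Cnot4 (right) circles that begin at exon 2, stacked by last exon, in the 4 libraries, 1 per stage and not scaled for depth. A Cnot4 circle with 2 alveolar reads and no match to exon boundaries is not drawn. Rbm33 exons 2 to 5 go from 2 canalicular to 19 terminal sac reads, and Cnot4 exons 2 to 3 from 41 terminal sac to 11 alveolar reads.

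The files also give non-junction reads, which run linearly across the ends of a circle, and the circular share is 2 times the junction reads over that number plus the non-junction reads. Over the 26 hosts with 20 or more junction reads, it ranged from 0.140% for Srsf1 to 31.5% for Hnrnpll. After Hnrnpll came Cnot4 (12.2%), Cnot6l (9.75%), Rbm41 (6.43%) and Rbm33 (6.35%), and the lowest after Srsf1 were Qk (0.192%), Rbm39 (0.378%), Ddx17 (0.394%) and Rbm25 (0.640%). Host values pool nested circles, so a linear read can count for more than 1 circle. Summed over all member circRNAs the circular share was 1.15%, 1.08%, 1.59% and 1.23% in order of stage, and over those with any host it was 1.81%, 1.92%, 1.89% and 1.91%. Over the 22 circRNAs listed in every library it was 3.92%, 4.17%, 5.28% and 3.24%, and over the 897 such circRNAs of the series 4.85%, 5.27%, 7.62% and 5.51%. In both of these fixed sets the terminal sac library was highest.

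For single circles, the ratio of junction to non-junction reads sets the circle against the linear reads beside it. Such a ratio does not tell which of its parts changed. The Hnrnpll circle had a circular share of 26.3% (22.2 to 30.6), 31.0% (26.7 to 35.5), 43.0% (37.3 to 48.7) and 28.3% (22.2 to 34.8), highest in the terminal sac library. Between the alveolar and the pseudoglandular library its odds ratio was 1.11 (Woolf interval 0.770 to 1.60), while its share of listed non-junction reads was 2.15-fold lower, close to the 2.18-fold of its junction reads. The same held for Cpsf6 exons 2 to 9, with an odds ratio of 1.26 (0.743 to 2.14) and non-junction reads 2.37-fold lower. For Dhx15 exons 2 to 3 the odds ratio was 0.859 (0.364 to 2.03) with non-junction reads 1.95-fold lower. In these 3 cases the interval of the odds ratio included 1, and junction and linear reads were both lower.

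For some other circles the odds differed. The odds for Cnot2 exons 2 to 4 were 3.38-fold lower in the alveolar than in the pseudoglandular library (1.23 to 9.28). They rest on 4 alveolar junction reads, with non-junction reads 1.56-fold lower. Those for Rbm33 exons 2 to 5 were 2.51-fold lower (1.01 to 6.26) with non-junction reads nearly level. Cnot4 exons 2 to 7 had an odds ratio of 2.57 (1.12 to 5.91) with non-junction reads 1.53-fold lower, and the ratio of its junction-read shares was 1.53 (0.627 to 3.96), which was not called. Cnot4 exons 2 to 3 had an odds ratio of 0.719 (0.349 to 1.48). Of 22 member circles compared, 1 was called higher (14.7% of all) and 2 lower (7.64% of all) by odds. From the pseudoglandular to the canalicular library the counts were 2 higher (10.9%) and 2 lower (4.86%) of 20, the higher being Dhx15 exons 2 to 3 (2.67, 1.54 to 4.64) and Hnrnph3 exons 2 to 9. From the canalicular to the terminal sac library 7 were higher (20.1%) and 1 lower (2.66%) of 23. From there to the alveolar library 1 was higher (3.6%) and 5 lower (19.7%) of 21. The series as a whole shows the same pair of opposite shifts around the terminal sac library, so these counts are not particular to the members.

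**Figure D5:**
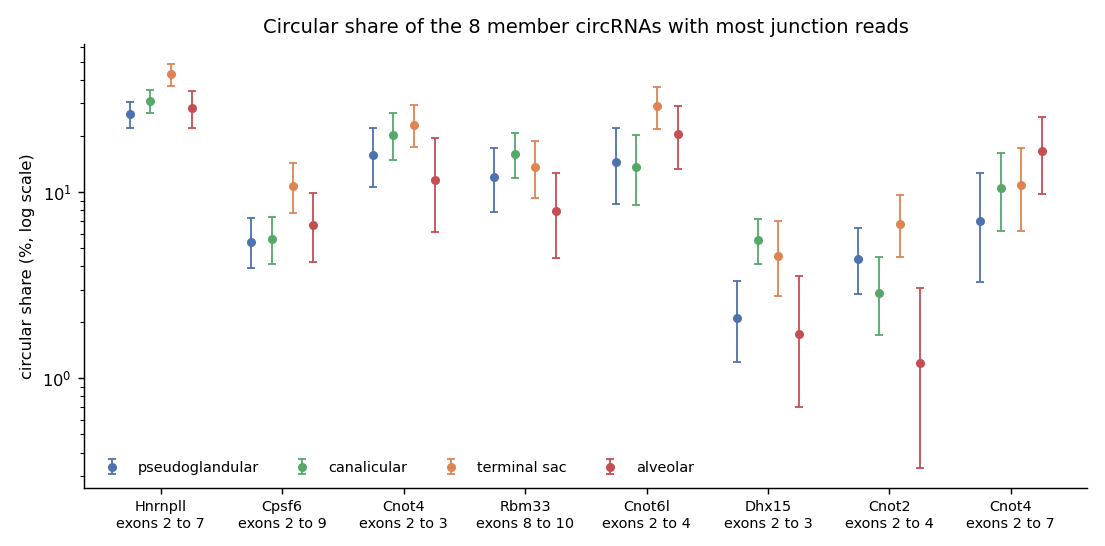
Circular share in percent (log scale) of the 8 member circRNAs with most junction reads in the 4 libraries, 1 per stage, with 95% intervals from the exact interval of junction reads over junction plus non-junction reads. Hnrnpll goes from 26.3% to 43.0% and back to 28.3%, and Cnot2 exons 2 to 4 are at 1.21% in the alveolar library.

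Member circles were then described by exon structure. Of the 277 circRNAs 251 were of the exon type with 2497 reads and 26 of the intron type with 67 reads. Both ends fell on exon boundaries of 1 M21 transcript for 80.5% of the exon-type circles, against 86.4% over the series. Of those at boundaries 33.2% began at exon 2, the earliest exon with a splice acceptor, against 28.9% over the series, and by reads the values were 64.0% and 43.8%. The leading circles of Hnrnpll, Cpsf6, Cnot4, Cnot6l, Dhx15 and Cnot2 all begin there. The median circle had 4 exons and a spliced length of 582.5 bases, against 5 exons and 650 bases. Flanking introns had medians of 4361 bases upstream and 3779.5 downstream, against 6897 and 5172.5. Spliced lengths divisible by 3, which would keep a reading frame around the circle, made up 36.1%, against 39.0%. These are descriptions with no test, since circles of 1 host share exons.

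A few circles matched only transcripts that are not annotated as protein coding, 8 of the members' boundary circles or 3.96%, against 1.73% over the series. The leading one was Rbm39 exons 3 to 4 of a transcript annotated for nonsense-mediated decay, the pathway that removes messages with early stop codons. This circle of 347 bases, between introns of 224 and 247 bases, was the main circle of Rbm39 with 7, 15, 5 and 6 reads. By odds against its linear reads it was 3.42-fold lower in the terminal sac than in the canalicular library (1.28 to 9.10). Circles of the same kind were listed for Rbmx (2 circles), Prpf39 and Cnot2.

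A list of 122 other genes of RNA processing gave a setting for the members, and 83 of them had a listed circRNA. Their junction reads came to 626, 753, 723 and 462, and the alveolar share was 1.48-fold below the pseudoglandular (1.31 to 1.67), against 1.74-fold for the members. Of 26 compared, 7 were lower (26.9%, against 16.5% of all hosts) and 1 higher (3.85%, against 13%). Among the lower were Upf2 (31 to 10 reads) and Smg6 (67 to 28) of nonsense-mediated decay, and Fip1l1 (23 to 11), a polyadenylation factor. The higher gene was Srpk2, a kinase of SR proteins, with 13 and 36 reads.

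Markers of lung cell types moved in the same libraries. The summed junction reads of 5 endothelial markers were 6, 19, 26 and 60, and those of the 3 listed of 5 mesenchymal markers 21, 5, 3 and 175. The epithelial markers went from 0% of listed junction reads at the pseudoglandular stage to 2.22% at the alveolar stage, while the members went from 2.57% to 1.48%. The 3 listed immune markers had 6, 17, 10 and 7 reads, and the 3 listed of 6 markers of striated and cardiac muscle 93, 23, 47 and 50. The part of cell composition in the members' values was not tested.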

How the data were processed

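Total RNA of mouse lung was sequenced in 4 libraries, 1 per stage. Junction reads and non-junction reads are raw counts deposited by the authors for each circRNA, and the junction ratio is a deposited fraction. The columns are those of the caller CIRI, per the file headers. The build mm10 and the tools BWA, HISAT2 2.0.5, cutadapt, HTSeq and StringTie come from the submitters' processing notes, without their roles. How the lists were filtered was not stated. A blank non-junction cell was read as 0.

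Hosts are the deposited Ensembl identifiers, 4647 of 4653 of them in GENCODE M21. A circRNA with several deposited hosts counted for each, 1 among the members. Counts were summed by host and library and scaled to listed junction reads. Host comparisons were also run on simulated counts with known folds, as a check of the code. The outcome is not reported here. It is not evidence for the calls above, most of which rest on few reads. An unlisted side was set to 3 reads. Medians used 0.5 added reads. Circular-share intervals were converted from exact intervals of junction reads over junction plus non-junction reads, and odds ratios had 0.5 added to each count. Marked circRNAs, a class defined after the data had been seen, have ends with a shared direct repeat of at least 6 bases, or under 0.3 alignment patterns per read with 5 or more reads. The repeat search covered only hosted circRNAs not matched to exon boundaries, with both ends in exons of the same transcript. Repeats at other ends were not searched. Flanking-intron motifs and splice dinucleotides were planned and were not analysed here, and circles that touch untranslated exons have no sequence printed.

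Hosts were named if among the 12 with most reads, the 5 with most circRNAs, the 5 highest or lowest circular shares, the 2 leading hosts of a role group, or called, up to 15 a direction for the latest against the earliest stage and 8 a direction per step. A few others were named after their values were seen. The members and lists were chosen with earlier results of these data known. The shares without Hnrnpll and the role groups without marked circRNAs were added after seeing the data. Python 3.11.15, numpy 2.4.6, pandas 2.3.3, scipy 1.17.1 and matplotlib 3.10.9 were used.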

Additional observations from a re-analysis of the deposited data

Results flagged for a closer look

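Some circRNAs carry no deposited host and so lie outside the rule, although their ends fall in or around genes of these families. The values are junction reads as listed, and a library that does not list a circRNA counts as 3 reads by the setting above. A circRNA between the paralogous helicase genes Ddx19a and Ddx19b (chr8:110990477-111021095, a span of 30619 bases) had 17 junction reads in the terminal sac library and was listed in no other. A circRNA over Hnrnpd had 6 junction reads in the canalicular library and 2 in the terminal sac library. A circRNA from Hnrnpd to its neighbour Hnrnpdl had 4 junction reads in the terminal sac library. Circles over Hnrnpc, spanning 226481 bases, and over Rbfox1, spanning 217419 bases, had 4 junction reads each in the canalicular library. No cause was tested for any of them.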

How the results depend on the processing

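No paired analysis was possible because each stage has 1 library, and no replicate could be left out. Of 131 named host values under other settings 113 kept their direction and call, 17 kept the direction and lost the call, and 1 reversed. That one was Dhx9 between the canalicular and pseudoglandular libraries, at a log2 ratio of 0.55 without marked circRNAs. Between the alveolar and pseudoglandular libraries Dhx9 had too few reads left without marked circRNAs to compare. It lost its call there and is not in the tally. The settings were the median of ratios or non-junction reads as the scale, 1 deposited host only, and no marked circRNAs. Requiring 1 deposited host changed none of these values. Changes of the minimum and the limit to circRNAs listed in both libraries are outside this tally. In the order of comparisons below, that limit kept 4 of 12, 0 of 8, 2 of 8 and 2 of 5 calls. A minimum of 20 reads kept 9, 6, 6 and 4.

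Between the alveolar and pseudoglandular libraries 11 hosts were lower, and 7 were with non-junction reads as the scale, 6 without marked circRNAs and 4 over circRNAs listed in both libraries, where 0 were higher. Between the canalicular and pseudoglandular libraries non-junction scaling gave 6 higher, and circRNAs listed in both gave 1 higher and 0 lower, with 0 of the 8 calls kept. A minimum of 20 reads left 1 circRNA lower. Between the terminal sac and canalicular libraries a minimum of 20 reads left 2 hosts lower and 1 circRNA higher, and circRNAs listed in both gave 2 lower and 0 higher. Between the alveolar and terminal sac libraries 2 hosts were lower with the median of ratios, 2 without marked circRNAs and 2 over circRNAs listed in both, which gave 0 higher. There a minimum of 20 reads left 0 hosts higher and 2 circRNAs lower. Requiring both libraries removes every unlisted circle and lowers the number compared; for the other changes the cause was not tested.

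In order of stage, the share of junction reads without Hnrnpll was 2.17%, 1.98%, 1.77% and 1.30%. Over circRNAs listed in every library it was 2.63% (canalicular), 2.29% (terminal sac) and 1.67% (alveolar), and without marked circRNAs the alveolar share was 1.70%. The circular share over circRNAs listed in every library was 3.92%, 4.17%, 5.28% and 3.24%. Depth limits most hosts: 46 of 87 had under 10 junction reads in all 4 libraries together.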
